A study of Mus musculus with 59 samples.

Results

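The iron handling genes described here are 10 mouse genes that carry iron into, through and out of liver cells, store it, or set how much of it leaves: Hamp, Hamp2, Tfrc, Tfr2, Slc11a2, Slc40a1, Fth1, Ftl1, Scara5 and Cp. A gene was counted as measured where the array's annotation gave at least 1 probe set that symbol and no other. By that rule 9 of the 10 were measured, of 18193 genes in all, through 27 probe sets. Ftl1, the light chain of ferritin, lies only on 3 probe sets that name several genes and has no value here. The probe set that was brightest on average over the arrays stands for its gene, and all 4 probe sets of Slc11a2 are described.

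Total RNA from frozen liver was hybridised to 1-colour Affymetrix arrays, 1 array for each of 59 samples of male C57BL/6 mice that were 6 weeks of age and had been kept on their diet for 2 weeks before treatment. The diets were LRD-5001, a chow of natural ingredients, and AIN-76A, a diet made of purified ingredients. How much iron each diet held is not given in the sources used here. For 5 weeks, mice on each diet received sodium arsenite at 0 (control), 10 or 100 ppb in drinking water, or at 10 ppb in repelleted food. The other 4 groups were all on AIN-76A and were taken 8 hours after an intraperitoneal injection in saline: dexamethasone (a synthetic glucocorticoid) at 1 mg/kg together with sodium arsenite at 1 mg/kg, dexamethasone alone, arsenite alone, or saline alone. Each of the 12 groups has 5 arrays, except 100 ppb in water on AIN-76A with 4. The samples of a group are labelled as biological replicates, so a p-value here reflects the spread among such samples, and precision is limited by how many arrays there are.

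Iron travels in plasma bound to transferrin and enters most cells through transferrin receptor 1, and DMT1 then moves it from the endosome into the cytosol. It is stored in ferritin and leaves cells through ferroportin, the one known mammalian iron exporter. Hepcidin, a peptide hormone made by hepatocytes, binds ferroportin and causes its breakdown, and its gene is switched on by BMP signalling when iron stores are high and by interleukin-6 and STAT3 in inflammation.

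Mice carry a pair of hepcidin genes, Hamp and Hamp2, whose promoters are nearly the same in sequence and are shown here. Their probe sets cannot be assumed to be separate measurements, and promoters do not settle that, since transcripts were not compared. The stretches are RefSeq's 150 bases before each start in the GRCm38.p6 mouse assembly, both on the minus strand and written 5′ to 3′, Hamp at chr7:30944030-30944179 and Hamp2 at chr7:30924182-30924331. Capitals mark exact matches, on either strand, to GGCGCC, the core of the BMP response element known from the human hepcidin gene, and to TTCTTGGAA, the STAT3 site known from that gene.
Hamp: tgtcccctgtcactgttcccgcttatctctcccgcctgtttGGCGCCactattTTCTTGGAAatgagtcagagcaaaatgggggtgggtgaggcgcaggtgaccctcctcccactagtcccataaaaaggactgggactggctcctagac
Hamp2: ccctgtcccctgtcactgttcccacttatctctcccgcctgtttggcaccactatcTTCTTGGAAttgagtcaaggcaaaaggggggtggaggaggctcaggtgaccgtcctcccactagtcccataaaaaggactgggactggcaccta
With the Hamp2 stretch shifted by 3 bases, 135 of 147 positions (91.8%) were the same. The STAT3 letters began at -97 in Hamp and at -94 in Hamp2, counted from the start. The BMP letters began at -109 in Hamp, and the aligned Hamp2 stretch carries the substitution G45A there, counted from 1 at the 5′ end of the Hamp stretch. Of 32851 RefSeq mouse promoters of 250 bases, 9.59% hold GGCGCC and 0.365% hold TTCTTGGAA. Of the 10 genes 7 have an entry in that promoter table, and 2 of them hold GGCGCC (Hamp and Tfrc) and 2 hold TTCTTGGAA (Hamp and Hamp2). These matches describe letters only and show no binding.

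Values are log2 expression per probe set after RMA, a method that corrects background, normalizes arrays and combines probes. Array medians lay between 2.42 and 2.59. RMA pulls dim probe sets together, so folds of dim genes are understated, and levels of different probe sets are not set against each other. One array of each group, 12 in all, stood apart along the first principal component, which held 31.2% of the variance. Against the rest of their groups those arrays were lower by 0.89 on average for Scara5 (in 11 of 12 groups), 0.60 for Slc11a2 (11), 0.50 for Tfrc (7) and 0.47 for Slc40a1 (10), and within 0.17 for the other 5 genes. The hepatocyte markers averaged between 12.5 and 13.1 on every array of every group, while 6 red cell markers averaged at most 3.87 and 7 markers of exocrine pancreas at most 3.58. Those averages hide Cela1 of the pancreas list, which stood at 8.32 on LRD-5001 and 7.44 on AIN-76A at 100 ppb in water (adjusted p = 0.0323). On AIN-76A Cela1 was 0.92 lower at 100 than at 10 ppb in water (adjusted p = 0.047). Dexamethasone raised Fkbp5, a textbook glucocorticoid target, by 2.98 over saline (adjusted p = 0.00565), and dexamethasone with arsenite raised it by 2.93. Fkbp5 also differed without dexamethasone. On AIN-76A it was 2.35 higher at 100 than at 10 ppb in water (adjusted p = 0.00945). At 100 ppb it was 2.26 lower on LRD-5001 than on AIN-76A (adjusted p = 0.00405). Pck1, another gene checked for a response to dexamethasone, was 1.68 lower after dexamethasone than after saline (adjusted p = 0.0295). Genes were also checked for a response to arsenite, and none was called for injected arsenite over saline, where 0% of all probe sets were called. Of that list Mt1, Mt2 and Hmox1 were higher at 100 than at 10 ppb in water on AIN-76A, by 4.91, 5.52 and 1.58 (adjusted p = 0.0276, 0.0262 and 0.013). Mt1 and Mt2 were also on the list checked for dexamethasone.

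The clearest differences among the iron handling genes were between the diets. Averaged over the 4 exposure levels, LRD livers had more Slc40a1 and Tfrc and less Scara5 and Cp RNA than AIN livers, so 2 of 9 genes were called higher and 2 lower at an adjusted p under 0.05. In that comparison 4.26% of all probe sets were called, and the median difference was -0.08 over the 9 genes and -0.01 over all genes. Within single exposure levels, 1 of 9 genes (Scara5, lower) was called in control mice against a background of 0.568%, and 2 of 9 (Slc40a1 higher, Scara5 lower) at 100 ppb in water against 2.05%. None was called at 10 ppb in water, where the background was 0.344% and 3 of 9 had an unadjusted p under 0.05 in limma, or at 10 ppb in food, where the background was 0.295% and 2 of 9 did.

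**Figure D1:**
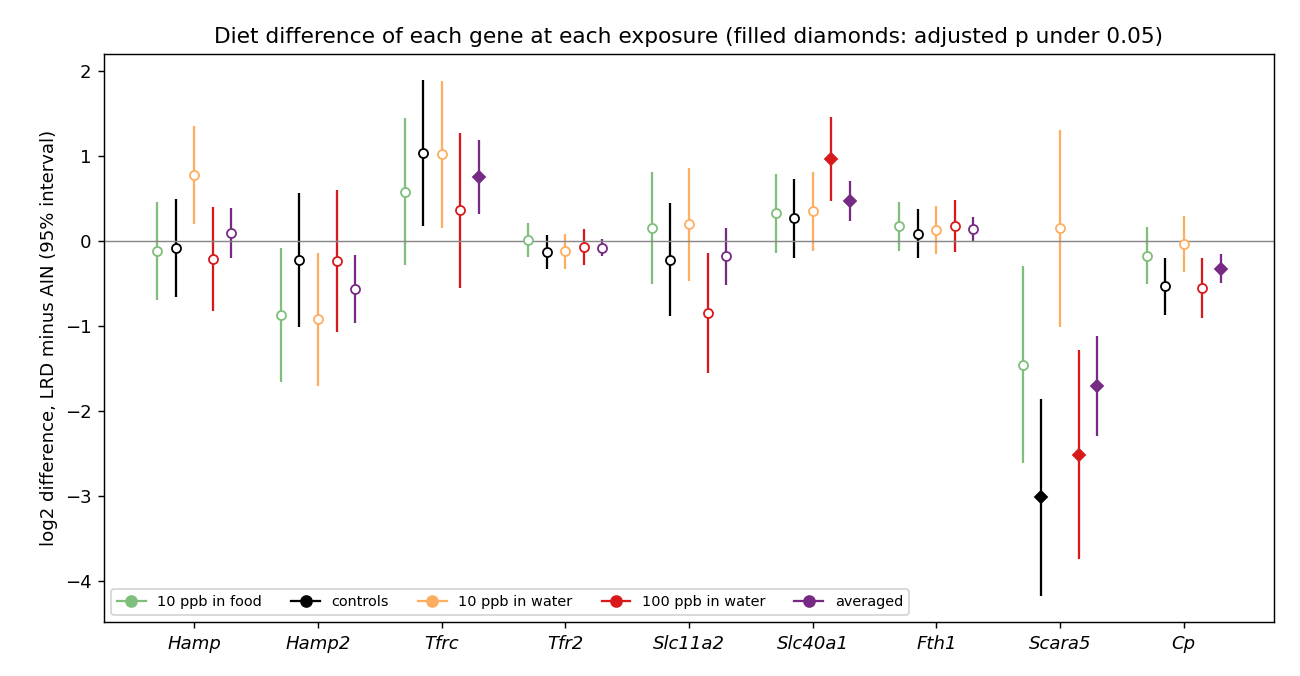
Difference in log2 expression, LRD minus AIN, for each measured iron handling gene, at each exposure level and averaged over the 4 levels, with 95% confidence intervals from limma as bars, filled diamonds for an adjusted p under 0.05, open circles for the rest and a line at no difference. Scara5 lay 3.02 lower in LRD than in AIN control mice, and Slc40a1 lay 0.96 higher in LRD than in AIN mice at 100 ppb in water.

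Arsenite for 5 weeks called none of the 9 genes against the control of the same diet. On AIN the backgrounds were 0% at 10 ppb in water, 0.00888% at 100 ppb in water and 0% at 10 ppb in food, with 2, 1 and 0 of 9 genes at an unadjusted p under 0.05 in limma. On LRD all 3 backgrounds were 0%, with 1, 1 and 3 genes. The tests of whether arsenite acted differently on the diets called no probe set of any gene (0% each), with 3, 1 and 0 of 9 genes at an unadjusted p under 0.05 for 10 ppb in water, 100 ppb in water and 10 ppb in food. Between 100 and 10 ppb in water, none of 9 was called on AIN, where the background was 0.713% and 5 had an unadjusted p under 0.05. None was called on LRD either, where the background was 0% and no gene had an unadjusted p under 0.05.

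After the injections, none of the 9 genes was called in any comparison. Dexamethasone with arsenite over saline had a background of 0.926% and 4 genes at an unadjusted p under 0.05 in limma, dexamethasone over saline 1.74% and 3 genes, and dexamethasone with arsenite over arsenite 0.881% and 4 genes. Arsenite over saline, dexamethasone with arsenite over dexamethasone and the test of their interaction each had a background of 0% and no gene at an unadjusted p under 0.05. Saline-injected livers against AIN control livers also had a background of 0%, with 2 of 9 genes at an unadjusted p under 0.05.

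Hamp, the iron hormone hepcidin, was bright in every group, with group means from 11.20 after saline to 12.32 after dexamethasone with arsenite. Averaged over exposures it stood at 11.94 in LRD and 11.85 in AIN livers, a difference of 0.09 (SE 0.14, adjusted p = 0.860). Its lowest 5-week group mean was on AIN with 10 ppb in water, where the livers had 10.46, 10.71, 11.16, 11.97 and 12.05, against 11.78, 11.95, 12.09, 12.13 and 12.57 in AIN controls. Of those 5 exposed livers, 3 lay below every control and the other two among them, and the difference of -0.83 (SE 0.28) was not called (adjusted p = 0.993).

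At 100 ppb on AIN, Hamp was 11.49, 12.34, 12.40 and 12.68, so 3 of the 4 livers were above all 5 livers at 10 ppb. The difference between 100 and 10 ppb, 0.96, was not called (adjusted p = 0.148). Without the 11.49 array, replicate A, it was 1.20 with an adjusted p of 0.0265. The second Hamp probe set gave the same pattern, with a correlation within groups of 0.991 over the 59 arrays, which share their RNA with the first.

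Hamp2, the second hepcidin gene of the mouse, averaged 9.07 in LRD and 9.63 in AIN livers, a difference of -0.56 (SE 0.20) that was not called (adjusted p = 0.113). With 10 ppb in food, it was 7.57, 8.05, 8.61, 8.89 and 9.54 on LRD and 8.37, 9.15, 9.67, 9.85 and 9.98 on AIN. With 10 ppb in water it was 8.61, 8.74, 9.003, 9.43 and 9.58 on LRD and 9.34, 9.63, 9.95, 10.40 and 10.68 on AIN. In both pairs the LRD livers lay mostly below the AIN livers but the groups overlapped, and the differences of -0.87 and -0.92 had adjusted p of 0.940 and 0.552. The second Hamp2 probe set was dim, at a mean of 2.42, and its correlation with the first within groups was -0.02. It gave -0.0007 between diets averaged over exposures and -0.12 for dexamethasone over saline, with no call. The Hamp2 values described here therefore rest on 1 probe set.

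After the injections Hamp2 spread most in the saline group, at 7.19, 7.71, 8.20, 8.71 and 10.78, against 9.53, 9.95, 9.99, 10.02 and 10.68 after dexamethasone with arsenite. All 5 doubly injected livers were above 4 of the 5 saline livers, and the saline array at 10.78, replicate B, was above them all. The difference of 1.51 (SE 0.56) was not called (adjusted p = 0.302), but without that array it was 2.08 with an adjusted p of 0.0331. Dexamethasone alone gave 8.96, 9.30, 9.30, 10.61 and 10.89, a difference of 1.29 (adjusted p = 0.364) that became 1.86 (adjusted p = 0.0424) without the same array. Arsenite alone stood at 9.19, 0.67 above saline, with livers from 8.23 to 10.05 inside the saline range. The lowest saline array, replicate E at 7.19, had a mean over 8 neutrophil markers of 5.88, against 2.8 to 3.1 on the other saline arrays. Its mean over 11 Kupffer cell markers was 8.47, against 6.01 to 6.95. The part of these cells in the Hamp2 values was not tested.

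Hamp after the injections was 11.68, 11.88, 12.44, 12.59 and 13.05 with dexamethasone and arsenite, 10.63, 12.07, 12.57, 12.65 and 12.95 with dexamethasone, and 9.89, 10.54, 11.14, 12.17 and 12.26 with saline. The differences from saline were 1.13 and 0.97, with overlapping groups and adjusted p of 0.453 and 0.494. The saline livers themselves lay below AIN controls by 0.90 for Hamp and 1.26 for Hamp2, neither of them called. The promoters of Hamp and Hamp2 are nearly the same, but they are not what the probes read. Transcript and probe sequences were not used here, so how far each probe set reads the other gene was not tested.

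**Figure D2:**
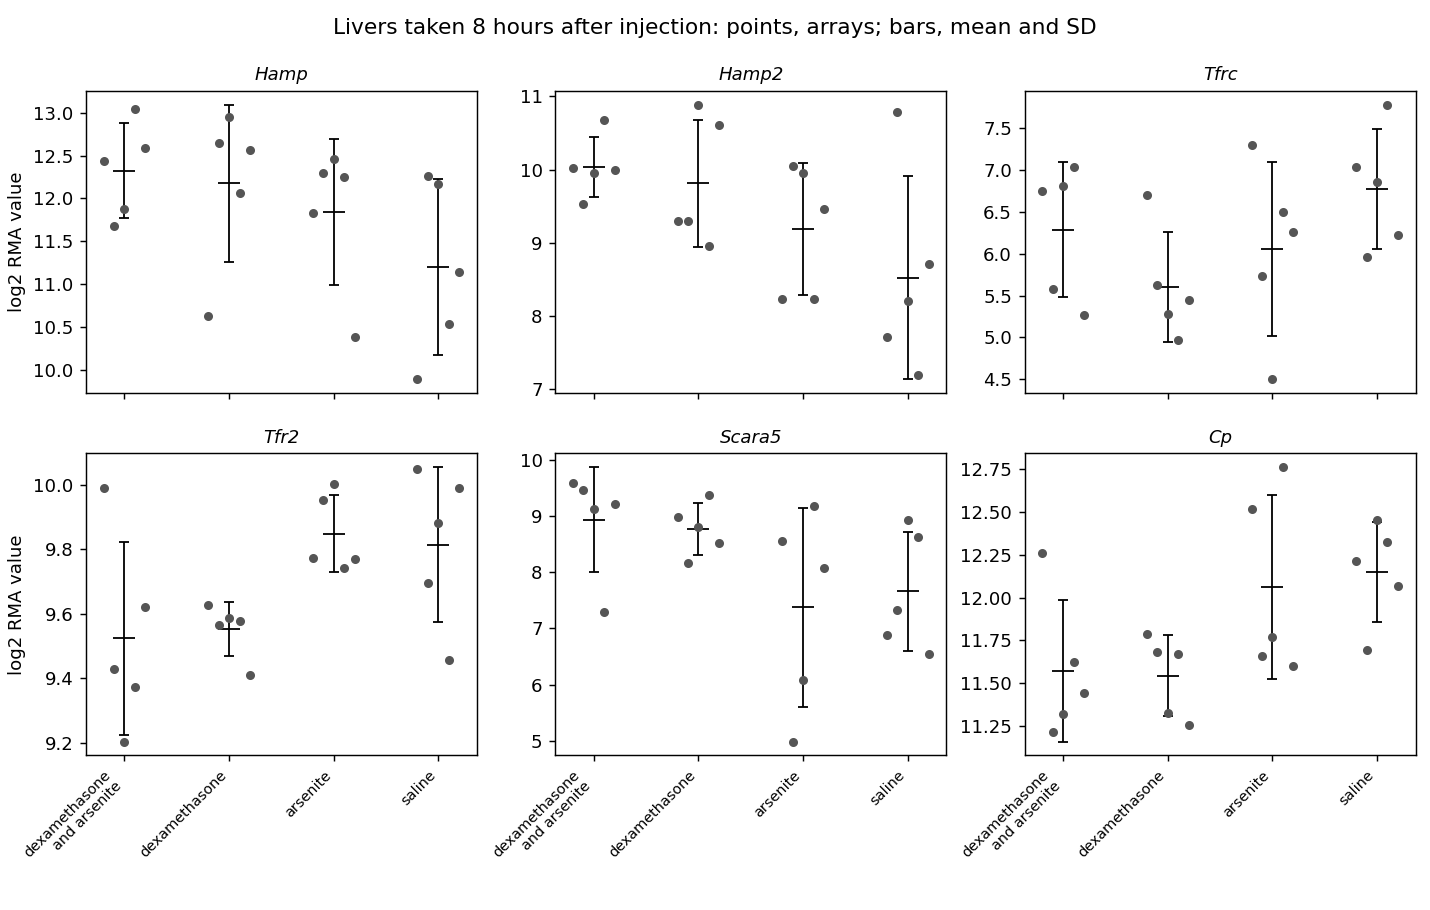
Log2 expression of Hamp, Hamp2, Tfrc, Tfr2, Scara5 and Cp on each array 8 hours after injection of dexamethasone with arsenite, dexamethasone, arsenite or saline. Points are arrays, and bars are group means with their SD (n = 5). For Hamp2 the saline array at 10.78 stands above the other 4 saline arrays, which lie between 7.19 and 8.71.

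Tfrc, transferrin receptor 1, which takes up transferrin-bound iron, was higher in LRD than in AIN livers when averaged over exposures, at 6.86 and 6.12. The difference was 0.75 (SE 0.21, 95% interval 0.31 to 1.18), or 1.68-fold, with an adjusted p of 0.0369. In control mice Tfrc was 6.18, 6.44, 7.17, 7.17 and 7.76 on LRD and 4.91, 5.29, 6.07, 6.54 and 6.76 on AIN, and with 10 ppb in water it was 4.88, 6.45, 7.10, 7.33 and 7.84 on LRD and 5.09, 5.30, 5.68, 6.13 and 6.32 on AIN. The groups overlapped at both levels.

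The Tfrc differences by level were 1.03 in controls, 1.02 at 10 ppb in water, 0.36 at 100 ppb in water and 0.58 at 10 ppb in food, all higher in LRD and none called alone. The averaged call rests on a narrow margin. It was lost (adjusted p up to 0.0656) on leaving out any 1 of 16 of the 39 arrays: food A, 10 ppb water C or D, 100 ppb water B or D, or control B or C on AIN, and food C or D, 10 ppb water A, C or D, 100 ppb water E or F, or control D or F on LRD. It was also lost with all 59 arrays in 1 fit (adjusted p = 0.0546). The other Tfrc probe sets were dim, at means of 2.98 and 2.20, and gave differences of 0.20 and 0.05 with no call.

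After dexamethasone Tfrc was 4.97, 5.29, 5.45, 5.62 and 6.70, against 5.97, 6.23, 6.86, 7.04 and 7.78 after saline. Of the 5 dexamethasone livers, 4 were below every saline liver, but the difference of -1.17 (SE 0.47) was not called (adjusted p = 0.316). With both agents Tfrc averaged 6.29 ± 0.80, and with arsenite alone 6.06 ± 1.04 (SD, n = 5 each), which are 0.49 and 0.72 below saline with overlapping arrays. The highest saline value, 7.78, came from replicate E, the saline array with the high neutrophil and Kupffer cell means.

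Tfr2, transferrin receptor 2, which senses transferrin-bound iron in hepatocytes upstream of hepcidin, was among the steadiest of the genes. Its group means lay between 9.52 and 9.92. The diets stood at 9.79 for LRD and 9.87 for AIN, a difference of -0.08 (adjusted p = 0.523). The lowest group means followed dexamethasone, at 9.20, 9.37, 9.43, 9.62 and 9.99 with arsenite and at 9.41, 9.56, 9.58, 9.59 and 9.63 without it, against 9.46, 9.69, 9.88, 9.99 and 10.05 after saline. The differences of -0.29 and -0.26 were not called (adjusted p = 0.452 and 0.465), and both pairs of groups overlapped.

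Scara5, a scavenger receptor known to bind serum ferritin, varied most across the groups, with means from 4.37 ± 0.90 in LRD controls to 8.94 ± 0.94 after dexamethasone with arsenite (SD, n = 5 each). It was the only measured iron handling gene called in control mice. The controls had 3.18, 4.17, 4.26, 4.56 and 5.70 on LRD and 5.94, 7.28, 7.33, 8.01 and 8.39 on AIN, so every LRD control was below every AIN control. The difference was -3.02 (SE 0.57, 95% interval -4.18 to -1.86), a ratio of 0.124, with an adjusted p of 0.00391. It stayed between -3.38 and -2.72, with an adjusted p of at most 0.0243, when any 1 array was left out. The second Scara5 probe set was dim, at a mean of 2.48, and did not show the difference. It gave -0.22 in controls (adjusted p = 0.87) and -0.03 averaged over exposures (adjusted p = 0.911). Its correlation with the first within groups was 0.07, so the Scara5 values described here rest on 1 probe set. In bulk liver RNA, fewer cells of a type and less RNA per cell cannot be told apart.

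The diet difference in Scara5 was not the same size at every exposure level. With 10 ppb in water it was 5.51, 5.77, 6.10, 6.51 and 6.89 on LRD and 4.55, 5.35, 5.95, 7.04 and 7.15 on AIN, interleaved groups whose means differed by 0.15 (adjusted p = 0.979). With 100 ppb in water it was 3.91, 4.53, 6.18, 6.33 and 7.02 on LRD and 6.40, 7.80, 8.77 and 9.47 on AIN, groups that overlapped only between 6.40 and 7.02. The diet difference at 100 ppb was -2.52 (SE 0.61, adjusted p = 0.0190).

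That call at 100 ppb was lost without LRD replicate A (adjusted p = 0.0716) or D (0.0692), or without AIN replicate B (0.133) or C (0.0687), and in a fit of those groups alone (0.197). With 10 ppb in food the diets differed by -1.46 (adjusted p = 0.761), at 6.01 ± 0.50 on LRD and 7.46 ± 0.72 on AIN (SD, n = 5 each). Averaged over exposures, Scara5 stood at 5.53 on LRD and 7.24 on AIN, a difference of -1.71 (SE 0.29, ratio 0.306, adjusted p = 0.000133). Without the 12 arrays that stood apart it was -1.53 (adjusted p = 0.00162).

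On LRD, all 3 arsenite groups had more Scara5 than their controls, by 1.78 at 10 ppb in water, 1.22 at 100 ppb in water and 1.63 at 10 ppb in food, and none of these was called (adjusted p = 0.9999 each). On AIN the differences from control were -1.38, 0.72 and 0.07. The 10 ppb water effect therefore differed between LRD and AIN by 3.17 (SE 0.81), which was not called once adjusted over all probe sets (adjusted p = 0.999). On AIN, 100 ppb stood 2.10 above 10 ppb (adjusted p = 0.0997), which became 2.67 (adjusted p = 0.0101) without AIN 100 ppb replicate A and 2.46 (adjusted p = 0.0380) without the arrays that stood apart.

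After the injections Scara5 was 7.29, 9.14, 9.21, 9.47 and 9.59 with dexamethasone and arsenite, 8.17, 8.52, 8.81, 8.99 and 9.38 with dexamethasone, and 6.54, 6.88, 7.33, 8.63 and 8.93 with saline. The groups overlapped, and the differences from saline of 1.27 and 1.11 were not called (adjusted p = 0.581 and 0.599). The arsenite group spread most, at 4.98, 6.09, 8.08, 8.55 and 9.18. Over the 12 group means, in ascending order, LRD control came first and stood 1.22 below the next, LRD with 100 ppb in water, with overlapping arrays. Neighbouring groups above it overlapped in the same way.

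**Figure D3:**
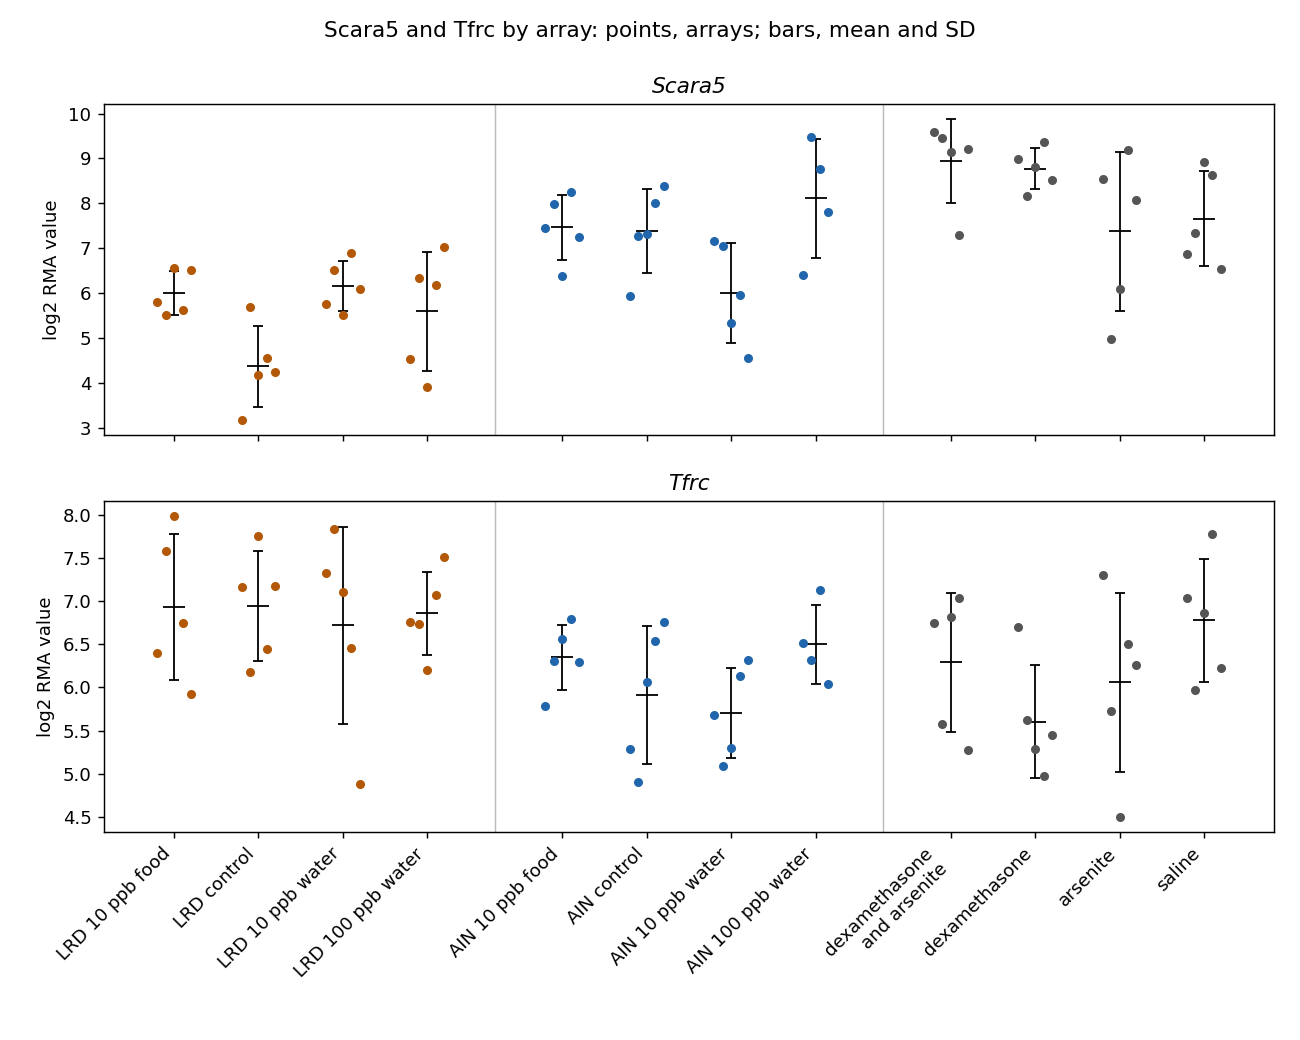
Log2 expression of Scara5 and Tfrc on each array of the 12 groups, with LRD groups at the left, AIN groups in the middle and injected groups at the right. Points are arrays, bars are group means with their SD (n = 5, or 4 for AIN at 100 ppb), and the LRD control arrays of Scara5 lie between 3.18 and 5.70, below the AIN control arrays at 5.94 to 8.39, while the groups at 10 ppb in water interleave.

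Markers of other cells also differed beside the Scara5 difference. Averaged over exposures, where 4.26% of all probe sets were called, 1 of 12 markers of stellate cells and fibroblasts was called, Rgs5, lower in LRD by 0.55 (adjusted p = 0.00369). A single call among 12 is near the share over all probe sets. Of 11 Kupffer cell markers 4 were lower in LRD: C1qa by 0.42, Csf1r by 0.33, Cd5l by 0.37 and Clec4f by 0.40. The mean level of the Kupffer list ran from 6.33 to 6.52 in LRD controls and from 6.52 to 7.57 in AIN controls. Acute-phase genes, those the liver makes in inflammation, had a mean level over 20 genes of 8.80 to 9.03 in LRD controls and 8.90 to 11.6 in AIN controls. At 100 ppb on AIN that mean was 12.13 and 11.93 on the arrays with the highest Scara5 (9.47 and 8.77, replicates B and C) and 9.34 on the array with the lowest (6.40, replicate A). In LRD controls it was highest on the array with the lowest Scara5 (9.03 and 3.18, replicate B). There it was lowest on the array with the highest Scara5 (8.80 and 5.70, replicate C). In AIN controls the lowest of both fell on replicate B, while the highest acute-phase mean, 11.6 on replicate C, went with Scara5 at 7.28. No marker can sit at 0 on this scale, and the part of these genes in the Scara5 difference was not tested.

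Over the 12 group means, the genes most like Scara5 were Fndc3b (r = 0.985), Skil (r = 0.963) and Cyp17a1 (r = 0.958). Within groups, over the same 59 arrays, those correlations were 0.70, 0.46 and 0.18. For Tfrc they were Dnlz (0.933), Stard10 (0.915) and Ap1s1 (0.904), with 0.20, -0.13 and 0.45 within groups, and for Hamp they were Pex13 (0.883), Tacc1 (0.858) and Clip1 (0.842), with 0.24, 0.08 and -0.11. The points share arrays and normalization, and each list is the top of 5493 candidates, so the values are descriptions.

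Slc11a2, the transporter DMT1, which moves ferrous iron out of endosomes, averaged 4.39 on LRD and 4.57 on AIN for its brightest probe set, a difference of -0.18 (SE 0.17, adjusted p = 0.703). All 4 of its probe sets had their highest group mean in AIN mice with 100 ppb in water. On the brightest probe set those livers had 4.21, 4.37, 6.10 and 6.31, against 4.30, 4.37, 4.63, 4.66 and 5.00 in AIN controls. They fell into a pair near the low end of the controls and a pair well above them, and the difference of 0.66 was not called (adjusted p = 0.602).

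On the third brightest probe set the same livers had 3.15, 3.41, 3.66 and 3.71, against 2.68, 2.69, 2.71, 2.86 and 2.93 in AIN controls. All 4 exposed livers were above every control, by 0.71 on average (SE 0.10, adjusted p = 0.00176). This probe set is dim, and it was 1 of the 4 called among all probe sets in that comparison (0.00888%). The call was lost without AIN 100 ppb replicate B (adjusted p = 0.0503), with all 59 arrays in 1 fit (0.157) and in a fit of those groups alone (0.965).

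The other Slc11a2 probe sets had the same direction over AIN controls, by 0.90 on the second brightest (adjusted p = 0.119) and by 0.61 on the dimmest (adjusted p = 0.297). On the second brightest the exposed livers had 3.84, 4.40, 5.21 and 5.32 and the controls 3.48, 3.75, 3.77, 3.92 and 4.04. That set was called without AIN 100 ppb replicate A, at 1.19 (adjusted p = 0.00136). On LRD, 100 ppb against control gave 0.03, 0.13, 0.01 and -0.02 on the probe sets in order of brightness, with no call.

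Between diets at 100 ppb, the third brightest probe set was 2.82, 2.84, 2.88, 2.88 and 3.04 on LRD, below all 4 AIN livers, a difference of -0.59 (adjusted p = 0.000889) that was not called in a fit of those groups alone (0.0989). The second brightest differed by -0.81 (adjusted p = 0.0472), a call lost on leaving out any LRD array or AIN replicate B or C (adjusted p up to 0.251), with all 59 arrays in 1 fit (0.121), in a fit of those groups alone (0.257) and with a robust variance trend (0.0510). On the brightest the difference of -0.85 (adjusted p = 0.240) was called without AIN replicate A, at -1.19 (adjusted p = 0.0464). The direct test of a diet by 100 ppb interaction gave -0.69 on the third brightest with an adjusted p of 0.326, and -0.81 with an adjusted p of 0.00620 without AIN replicate A.

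Against AIN mice at 10 ppb, those at 100 ppb were higher on all 4 Slc11a2 probe sets. In order of brightness the differences were 1.17 (adjusted p = 0.113), 0.91 (0.0406), 0.63 (0.00251) and 0.61 (0.185). The call on the second brightest was lost without AIN 10 ppb replicate A, D, E or F or AIN 100 ppb replicate B or C (adjusted p from 0.0527 to 0.280). With all 59 arrays in 1 fit the calls on the second brightest and the third brightest were lost (adjusted p = 0.131 and 0.0507), as they were in a fit of those groups alone (0.671 and 0.648). The difference on the brightest was called without AIN 100 ppb replicate A, at 1.52 (adjusted p = 0.00973), or D, at 1.47 (adjusted p = 0.0343). These comparisons share the AIN 100 ppb arrays.

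Acute-phase levels differed between the same arrays. The mean over the 20 genes was 12.13 and 11.93 on AIN 100 ppb replicates B and C, which had the high values on the brightest and second brightest Slc11a2 probe sets, and 9.34 and 10.87 on replicates A and D. On the third brightest, the probe set called over controls, the high pair was instead B at 3.71 and D at 3.66, with C at 3.41 and A at 3.15. It ran from 9.003 to 10.2 at 100 ppb on LRD and from 8.90 to 11.6 in AIN controls. The mean over 8 neutrophil markers was 4.19 and 3.95 on replicates B and C and 2.53 and 3.29 on A and D, against 2.43 to 2.54 at 100 ppb on LRD. Their part in the Slc11a2 values was not tested.

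In the injected arsenite group Slc11a2 on the brightest probe set was 4.32, 4.49, 4.76, 5.92 and 6.07, against 3.93, 4.53, 4.65, 4.73 and 5.87 after saline. The highest pair in the arsenite group, replicates E and A, also had the highest acute-phase means of that group, at 11.95 and 11.71. After saline the array with the highest acute-phase mean, replicate C at 11.51, also had the highest Slc11a2, 5.87. The same held in every group exposed to arsenite for 5 weeks. It did not hold in either control group, or after dexamethasone with or without arsenite. AIN control replicate C, among the arrays that stood apart, had the highest acute-phase mean of its group, 11.6, and the lowest Slc11a2, 4.30. Replicate A of dexamethasone with arsenite had 11.76 with Slc11a2 at 4.30. The relation of these levels was not tested. Dexamethasone with arsenite stood 1.08 below arsenite alone (adjusted p = 0.243). Over the 12 group means the genes most like this probe set were Fas (r = 0.944), Calr (0.929) and Ahsa2 (0.913), and within groups those correlations were 0.46, 0.61 and 0.34 over 59 arrays.

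**Figure D4:**
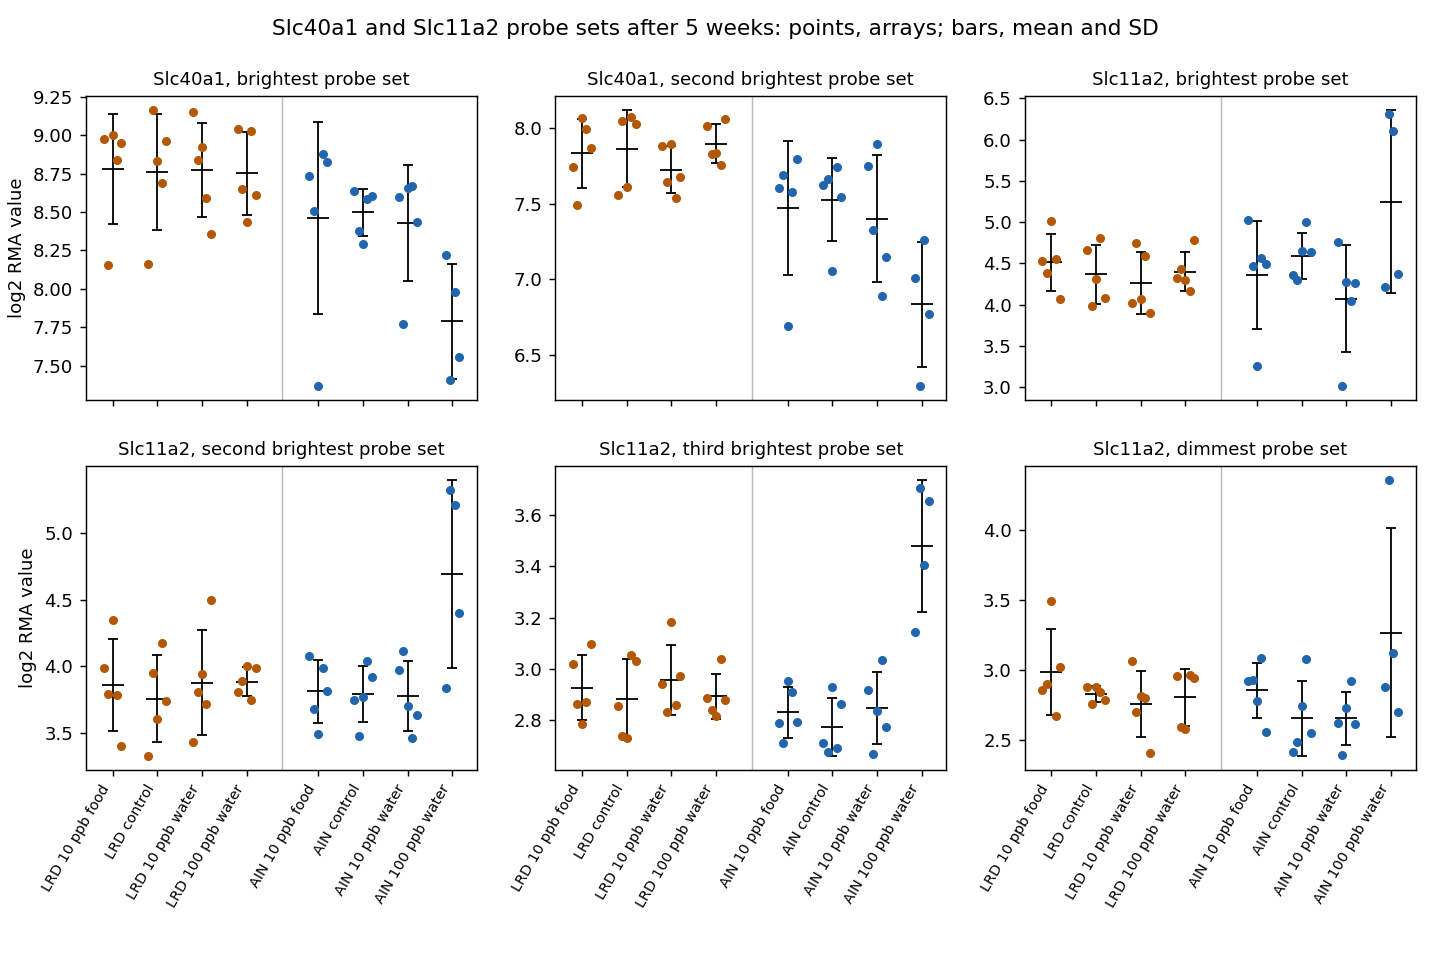
Log2 expression of 2 Slc40a1 and 4 Slc11a2 probe sets, named by brightness, on each array of the 8 groups exposed for 5 weeks, LRD left of AIN. Points are arrays and bars are group means with their SD (n = 5, or 4 for AIN at 100 ppb). In AIN mice at 100 ppb in water the arrays of the brightest Slc40a1 probe set lie between 7.41 and 8.22, below the LRD arrays at 8.43 to 9.04, and those of the third brightest Slc11a2 probe set between 3.15 and 3.71, above the LRD arrays at 2.82 to 3.04.

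Slc40a1, the exporter ferroportin, was higher in LRD than in AIN livers on average, at 8.77 and 8.30, by 0.47 (SE 0.12, adjusted p = 0.0102). Its second probe set gave 0.52 (adjusted p = 0.000397). The difference was widest at 100 ppb in water, where LRD livers had 8.43, 8.61, 8.65, 9.03 and 9.04 and AIN livers 7.41, 7.56, 7.98 and 8.22. No AIN liver reached the lowest LRD liver, and LRD was higher by 0.96 (SE 0.24, 95% interval 0.47 to 1.45), or 1.94-fold, with an adjusted p of 0.0262.

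The second brightest Slc40a1 probe set had 7.76, 7.83, 7.83, 8.01 and 8.06 in LRD and 6.29, 6.77, 7.01 and 7.26 in AIN livers at 100 ppb. Those groups did not overlap either, and the difference was 1.07 (SE 0.20, adjusted p = 0.00233). On the first probe set the call was lost without AIN replicate B (adjusted p = 0.139) or D (0.0825) or LRD replicate A (0.0828) or E (0.0660), and in a fit of those groups alone (0.0892). In controls, at 10 ppb in water and at 10 ppb in food the difference was 0.26, 0.35 and 0.32, higher in LRD each time and not called.

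The 4 LRD groups hardly differed in Slc40a1, with means of 8.76 ± 0.38 in controls, 8.77 ± 0.30 and 8.75 ± 0.27 at 10 and 100 ppb in water, and 8.78 ± 0.36 at 10 ppb in food (SD, n = 5 each). On AIN the 100 ppb livers, at 7.79 ± 0.37 (SD, n = 4), lay wholly below the controls at 8.50 ± 0.15 (SD, n = 5). That difference of -0.71 (SE 0.24) was not called (adjusted p = 0.314), but was called without the arrays that stood apart, at -0.66 (adjusted p = 0.0264). The second probe set gave -0.69 (adjusted p = 0.193). The test of whether 100 ppb acted differently on the diets gave 0.70 (adjusted p = 0.814). Ferroportin is abundant in Kupffer cells, whose 11 markers averaged from 6.39 to 7.04 at 100 ppb on LRD and from 6.55 to 6.94 at 100 ppb on AIN, overlapping ranges. The acute-phase mean ran from 9.003 to 10.2 at 100 ppb on LRD and from 9.34 to 12.13 on AIN, and the neutrophil mean from 2.43 to 2.54 on LRD and from 2.53 to 4.19 on AIN. Their part in the Slc40a1 difference was not tested.

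After the injections Slc40a1 stood at 8.49 with dexamethasone and arsenite, 8.54 with dexamethasone, 8.23 with arsenite and 8.24 with saline, with no call. Among the 12 group means AIN with 100 ppb was the lowest, and its arrays overlapped those of the next group, injected arsenite.

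Cp, ceruloplasmin, a plasma ferroxidase that loads exported iron onto transferrin and is also an acute-phase protein, was lower in LRD than in AIN livers. Averaged over exposures the levels were 11.47 and 11.80, a difference of -0.33 (SE 0.08, ratio 0.797, adjusted p = 0.0142). Of its 8 probe sets 3 were called lower in LRD and none higher, and 6 of 8 had that sign. LRD controls had 11.18, 11.19, 11.26, 11.30 and 11.32, a narrow band below all AIN controls at 11.36, 11.48, 11.71, 12.12 and 12.24. Although the control groups did not overlap, their difference of -0.53 (SE 0.16) was not called (adjusted p = 0.187), in a comparison with 0.568% of probe sets called.

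At 100 ppb in water Cp was 11.31, 11.37, 11.44, 11.62 and 11.65 on LRD and 11.64, 11.98, 12.15 and 12.37 on AIN. The groups met at 11.64 and 11.65, and the difference of -0.56 (adjusted p = 0.0863) became -0.69 (adjusted p = 0.0222) without AIN replicate A. At 10 ppb in water the diets differed by -0.04. The acute-phase means moved with Cp: they ran from 8.80 to 9.03 in LRD controls and from 8.90 to 11.6 in AIN controls, and averaged over exposures 11 of the 20 acute-phase genes were lower in LRD, beside 4.26% of all probe sets called, with a list median of -0.55. Their part in the Cp difference was not tested.

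After dexamethasone Cp was 11.25, 11.33, 11.67, 11.68 and 11.79, against 11.70, 12.07, 12.21, 12.33 and 12.45 after saline. The groups overlapped only between 11.70 and 11.79, and the difference of -0.61 was not called (adjusted p = 0.264). With both agents it was 11.22, 11.32, 11.44, 11.62 and 12.26, a difference from saline of -0.58 (adjusted p = 0.360). Arsenite alone, at 12.06 ± 0.54, lay within the spread of saline, at 12.15 ± 0.29 (SD, n = 5 each).

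Fth1, the ferritin heavy chain, which oxidises iron for storage, varied least. All 59 arrays lay between 11.64 and 12.53, and the group means between 12.06 and 12.35. The diets stood at 12.26 for LRD and 12.13 for AIN, a difference of 0.14 (SE 0.07, adjusted p = 0.387) that was positive at all 4 exposure levels, from 0.08 to 0.17. Ferritin and Tfrc are known to be set largely after transcription, by iron regulatory proteins that bind their mRNAs. These arrays measure the amount of each mRNA, and neither that binding nor the proteins made.

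Other genes of the pathway were examined in 6 lists, and the counts of called genes stand against the 4.26% of all probe sets called between diets averaged over exposures. In that comparison 2 of 23 genes of hepcidin regulation were called: Hfe, which works with Tfr2 in iron sensing, was 0.27 higher in LRD (adjusted p = 0.00286) and Stat3 was 0.58 lower (adjusted p = 0.000236). Of 7 genes of iron sensing and ferritin turnover, Aco1, which encodes iron regulatory protein 1, was 0.56 higher (adjusted p = 0.0180) and Ncoa4, the receptor that takes ferritin to the lysosome, was 0.33 lower (adjusted p = 0.00869).

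Of 15 other genes of iron and transferrin transport, 1 was higher and 4 lower in LRD. Slc25a37, the mitochondrial iron importer mitoferrin 1, was higher by 0.55 (adjusted p = 0.00568). The lower ones were Slc39a14 (ZIP14, which takes up iron not bound to transferrin) at -0.75, Lcn2 (lipocalin 2, which binds siderophores) at -3.34, and the metalloreductases Steap2 at -0.60 and Steap4 at -1.07 (adjusted p from 0.000379 to 0.0304). Of these, Slc39a14, Lcn2 and Steap4 are also known to rise in inflammation. Lcn2 and Steap4 are counted among the 20 acute-phase genes as well.

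Of 13 genes of haem and haemoglobin salvage, Abcg2 (0.37) and Blvrb (0.43) were higher in LRD and Hmox2, a haem oxygenase, was lower (-0.15). Fech, which inserts iron into protoporphyrin, was 0.16 higher among 8 haem synthesis genes (adjusted p = 0.00637), and Nfs1, the cysteine desulphurase of iron-sulphur cluster assembly, was 0.35 higher among 12 (adjusted p = 0.0109). A single call in lists of 8 and 12 genes is near the share over all probe sets. In control mice alone none of these genes was called.

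At 100 ppb in water 2.05% of all probe sets were called between diets. The called transport genes in that comparison were all lower in LRD than in AIN livers. Slc39a14 stood at 7.64 in LRD and 9.17 in AIN (difference -1.53, adjusted p = 0.00200), Lcn2 at 4.64 and 10.37 (-5.73, adjusted p = 0.0417), and Steap4 differed by -2.08 (adjusted p = 0.0199). Hmox1, the inducible haem oxygenase, was lower by 1.45 (adjusted p = 0.0108), while Abcg2 (0.82) and Fech (0.31) were higher. These genes come from the transport, haem salvage and haem synthesis lists, whose sizes are given above. Fech was the only call in the haem synthesis list, and a single call says little of that short list. In AIN mice, 100 over 10 ppb gave 1.44 for Slc39a14 (adjusted p = 0.0104), 2.11 for Steap4 (0.0351) and 1.58 for Hmox1 (0.0130). There 0.713% of all probe sets were called. The acute-phase and neutrophil levels given beside Slc11a2 differ between these groups too. Lcn2 and Steap4 are themselves among the 20 acute-phase genes, so the acute-phase mean includes them. The part of the acute-phase and neutrophil genes was not tested.

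After dexamethasone over saline 1 of 7 genes of iron sensing and ferritin turnover, 1 of 13 of haem salvage and 1 of 8 of haem synthesis were called, and none in the lists of 23, 15 and 12. These few calls stand against 1.74% of all probe sets and say nothing particular of the pathway. Dexamethasone raised Ncoa4 by 0.99 (adjusted p = 0.000729) and Hmox2 by 0.68 (adjusted p = 0.0257), and Fech fell by 0.55 (adjusted p = 0.00109). Dexamethasone with arsenite over saline, where 0.926% of all probe sets were called, gave 0.90, 0.70 and -0.40 for the same genes (adjusted p = 0.00254, 0.0319 and 0.0230), and it also raised Pcbp1, an iron chaperone that loads ferritin, by 0.51 (adjusted p = 0.0401).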

How the data were processed

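Liver RNA of 59 mice in 12 groups was measured on Affymetrix arrays. The deposited values are log2 expression per probe set, made with RMA per the submitters' processing notes (its version is not given). No further normalization or filter was applied. The array has 45101 probe sets, 64 of them controls, and the 45037 others were tested, of which 34945 carry a single gene symbol, 932 several and 9160 none in the platform annotation.

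In R 4.3.3, limma 3.58.1 fitted a mean per group in a model of the 39 arrays of the 5-week groups, another of the 20 arrays of the injection groups, and 1 of all 59 arrays for saline over AIN control. The Benjamini-Hochberg adjustment of p-values ran over every probe set tested, contrast by contrast, and a call is an adjusted p under 0.05. The scripts were tested on simulated data with 200 changed probe sets. Of the calls there, 11.4% were false for 100 ppb in water over control on AIN. For the averaged diet comparison 7.44% were false, and for dexamethasone over saline 6.91%. Interactions at 10 ppb and the 100 over 10 ppb contrasts were added after the data were seen. Every measured iron gene is named. Of the other lists, genes called in a contrast are named, and like genes are the 3 with the highest correlation over group means among probe sets with a mean of at least 5. The genes and all lists were chosen with earlier results of these data known.

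No 2 arrays held the same values: the closest pair correlated at 0.994 and differed with an SD of 0.22. Alternatives tried were other normalization, filters, fits, blocks and left-out arrays.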

Additional observations from a re-analysis of the deposited data

Results flagged for a closer look

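In 9 of 144 probe set and group combinations with 4 or 5 arrays, 1 array stood far from the others by Dixon's criterion, which chance meets in about 1 of 20. Hamp2 was 11.33 on AIN control replicate B, above the next array at 9.72. Tfr2 was 9.41 on dexamethasone replicate F, below the next at 9.57. Scara5 was 7.29 on replicate E of dexamethasone with arsenite, below the next at 9.14. Slc40a1 was low on 3 arrays: 7.37 on AIN food replicate D (next 8.51), 7.77 on AIN 10 ppb water replicate C (next 8.43) and 8.15 on LRD food replicate C (next 8.84). Fth1 was high at 12.38 on replicate E of dexamethasone with arsenite (next 12.09), and low at 11.66 on LRD 10 ppb water replicate A (next 12.23) and at 11.75 on LRD 100 ppb water replicate E (next 12.31). The Scara5 array, the 3 Slc40a1 arrays and the high Fth1 array are among the 12 that stood apart on the first principal component.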

How the results depend on the processing

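Of the 9 iron handling genes, 2 were called between LRD and AIN at 100 ppb in water. That count was 0 with only the groups compared in the fit, 1 with a replicate block, and 0 to 4 when 1 array was left out. For 100 ppb in water over control on AIN it was 0, and became 1 when any probe set of a gene could count and 1 without the arrays that stood apart. For 100 over 10 ppb on AIN it was 0, and became 1 with quantile normalization, 2 with probe sets of a mean of at least 4, 1 with any probe set, 3 with the arrays apart as a block, 3 without them, and 0 to 3 when 1 array was left out. For dexamethasone with arsenite over saline it was 0, and became 1 with a replicate block and 0 to 1 when 1 array was left out; for dexamethasone over saline that range was 0 to 1. Averaged over exposures, 4 genes were called between diets, and 3 to 4 when 1 array was left out. Over single genes, 77 of 94 alternatives for a called difference kept the call and 17 lost it, and of 229 with 1 array left out 191 kept it and 38 lost it; none reversed sign. The cause of these changes was not tested. Arrays of the same replicate letter did not deviate together: over 267 such pairs the median correlation was -0.0046 (range -0.63 to 0.70), so the letters were not taken as pairs, and the replicate block moved no other count of calls by over 1.5 times. With that block the calls were lost for Slc40a1 at 100 ppb between diets (0.90, adjusted p = 0.0515), for Tfrc averaged over exposures (0.76, adjusted p = 0.0624) and for the second brightest Slc11a2 probe set between diets at 100 ppb (-0.81, adjusted p = 0.0929) and for 100 over 10 ppb on AIN (0.92, adjusted p = 0.0877), and Hamp2 was called for dexamethasone with arsenite over saline (1.75, adjusted p = 0.0476). Groups of 4 or 5 arrays limit precision, and dim probe sets, among them 3 of the 4 of Slc11a2, lie where RMA understates folds.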
